A study of Mus musculus with 41 samples.

Results

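Fracture calluses taken from young mice 10 days after tibial fracture were compared with bones of young mice taken at day 0, across all genes on the array. The comparison rests on 10 of the 41 arrays of the series, 5 per group, chosen by the age and the day in their labels and by no measured value. The day 10 group consisted of 5 mice aged 5 months whose fractures had healed for 10 days, and the day 0 group of 5 other mice of the same age. All mice of the series came from the aged rodent colony of the NIH. The labels give neither strain nor sex. The legs were stabilized with an intramedullary pin of one size, both tibiae were broken as closed fractures with a blunt guillotine, and buprenorphine was given. Whether day 0 mice had received the pin is not stated. Total RNA was extracted from whole bone or from callus alone, amplified to cDNA and hybridized to Affymetrix Mouse Gene 1.0 ST arrays, a whole-transcript microarray. Which array held whole bone is not given, so the day and the tissue taken cannot be told apart.

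The remaining 31 arrays held young mice at days 5 and 20 and mice aged 25 months (called old here) at days 0, 5, 10 and 20. They entered one model with the 10 arrays, so that all 8 groups shared an estimate of the spread of each gene. Values are log2 normalized intensities as deposited by the authors. A change is the mean of the day 10 arrays minus the mean of the day 0 arrays, given ± its moderated standard error (SE), n = 5 each. A gene was called higher or lower where the moderated test of limma gave a Benjamini-Hochberg adjusted p under 0.05 over 19938 genes. Where 5 values are listed, they are those of replicates 1 to 5 of the group.

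A long-bone fracture that can move heals through a cartilage stage. Cells of the periosteum divide, form chondrocytes and lay down a matrix of type II collagen and aggrecan. The chondrocytes then enlarge (hypertrophy), switch to type X collagen, mineralize their matrix and are replaced by bone as vessels and osteoclasts enter. Intact bone, by contrast, carries marrow, in which red cells, neutrophils, platelets and B cells are made.

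The groups were further apart than the arrays within them. Pearson correlations over all genes were 0.98 to 0.992 among day 10 arrays, 0.962 to 0.994 among day 0 arrays and 0.886 to 0.959 between the groups. The first principal component of the 10 arrays held 76.1% of their variance and placed day 10 arrays at 32.0 to 60.7 and day 0 arrays at −63.3 to −33.4. Replicates 2 and 5 of day 0 stood apart from the other day 0 arrays (−33.4 and −33.7), and replicate 1 of day 10 from the other day 10 arrays (32.0). These day 0 arrays carried more skeletal muscle and periosteal transcripts and fewer B-cell and platelet transcripts, so counts were also made without them. Of 102 list counts (higher and lower in each of 51 lists) 42 changed without them, none by more than 3 genes, and those of 3 or more genes that moved by over 1.5 times are given below. The mean of 30 skeletal muscle genes was 9.96 and 10.08 in replicates 2 and 5, and 8.82, 8.92 and 9.66 in the other day 0 arrays. Sample names fell into numbering series, and each group held 3 arrays of the series with high numbers. The other 2 arrays were of a series with low numbers at day 10 and of a lettered series at day 0. Series and day were thus partly tied in this comparison. With the numbering series as a block 7900 genes were called, 4400 higher and 3500 lower.

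Day 10 calluses carried cartilage, collagen and bone-forming transcripts far above day 0 bones, and red-cell, neutrophil, platelet, B-cell and cell-division transcripts far below them. Of 19938 genes 8565 (43.0%) were called, 4622 higher (23.2%) and 3943 lower (19.8%). The groups did not overlap in 5699 genes (28.6%), and 5570 of these were called, 3225 higher and 2345 lower. Changes of at least 2-fold were called in 1545 genes upward and 1015 downward, and of at least 8-fold in 63 upward and 26 downward. The median change over all genes was −0.02. With each array centred on its own median that median was −0.10, and 41.1% of 9719 calls were upward (3991 higher, 5728 lower) in place of 54.0%. With quantile normalization 47.8% of 8642 calls were upward (4127 higher, 4515 lower).

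**Figure D1:**
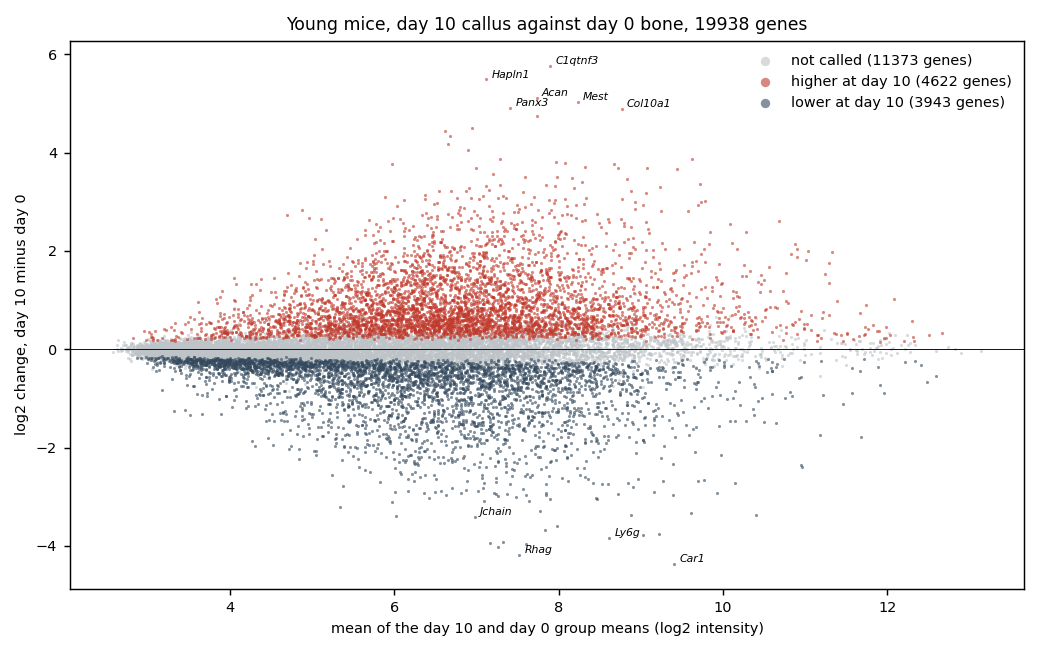
Log2 change of each of 19938 genes (day 10 minus day 0, young mice, 5 arrays each) against the mean of both group means in log2 intensity. Red points are genes called higher, dark points genes called lower and grey points genes not called. C1qtnf3 and Hapln1 lie at the top, and Car1 and Rhag at the bottom.

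C1qtnf3, a secreted protein of cartilage also called cartonectin, had the largest change of all genes called without overlap. Its values were 9.70, 10.94, 10.53, 11.40 and 11.30 in day 10 calluses, against 5.03, 5.48, 4.26, 5.20 and 5.09 in day 0 bones, a change of 5.77 ± 0.44 (adjusted p = 4.6e-13). Hapln1, the link protein that ties aggrecan to hyaluronan, stood at 9.25, 10.04, 9.61, 10.48 and 9.92 at day 10, against 4.14, 4.95, 3.91, 4.18 and 4.68 at day 0. Its change was 5.49 ± 0.53, or 44.9-fold. Acan, which encodes aggrecan itself, read 9.78, 10.67, 10.39, 10.86 and 9.74 in day 10 calluses, against 4.58, 5.68, 5.03, 5.4 and 5.16 in day 0 bones. That is 34.7-fold (5.12 ± 0.50 in log2). In all 3 genes the lowest day 10 callus was more than 4 log2 units above the highest day 0 bone.

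Mest, an imprinted gene expressed in embryonic mesoderm, read 9.87, 10.94, 10.90, 11.04 and 10.98 at day 10, against 5.66, 5.97, 5.59, 5.57 and 5.77 at day 0 (5.03 ± 0.31). The channel gene Panx3 (pannexin) of maturing chondrocytes and osteoblasts had 9.65, 9.78, 9.82, 10.33 and 9.71 in calluses at day 10, against 4.99, 5.20, 4.87, 5.16 and 4.53 in bones at day 0 (4.91 ± 0.42). Col10a1, the collagen of hypertrophic chondrocytes, reached 10.95, 11.42, 11.00, 11.47 and 11.20 at day 10, against 6.02, 6.30, 6.63, 6.28 and 6.37 at day 0 (4.89 ± 0.38). The day 10 arrays lay within 1 log2 unit of each other for Panx3 and Col10a1, while Mest was lowest in replicate 1. Clec3a (4.74 ± 0.52), Matn3 (4.50 ± 0.41) and Cnmd (4.18 ± 0.36), all proteins of cartilage, were also among the 12 highest. The others were the monocyte attractant Ccl8 (4.45 ± 0.33), Capn6 (4.34 ± 0.33) and Ddah1 (4.06 ± 0.32). In each of the 12 the adjusted p was 1.3e-09 or less.

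Of the 12 lowest genes, 9 belong to the list of red cells and their precursors in marrow. Car1, a carbonic anhydrase of red cells, read 9.62, 7.99, 4.70, 5.03 and 8.74 in day 10 calluses, against 11.74, 11.51, 11.88, 11.51 and 11.24 in day 0 bones (−4.36 ± 0.66). Rhag, the Rh-associated glycoprotein of the red-cell membrane, had 7.62, 6.06, 3.34, 3.49 and 6.65 at day 10, against 9.80, 9.24, 10.13, 9.80 and 9.09 at day 0 (−4.18 ± 0.67). The day 10 calluses were unequal here. Replicates 3 and 4 were the lowest and replicate 1 the highest in both genes, and still every day 10 value lay below every day 0 value. Ly6g, the neutrophil surface marker, was 8.21, 6.79, 5.41, 6.46 and 6.58 at day 10, against 10.44, 10.99, 10.87, 10.54 and 9.81 at day 0 (−3.84 ± 0.53). Jchain, the joining chain of secreted immunoglobulin, was 6.81, 5.47, 4.52, 4.08 and 5.45 at day 10, against 8.90, 8.69, 9.58, 8.86 and 7.38 at day 0 (−3.41 ± 0.49). The other 8 were Kel (−4.03 ± 0.53), Cldn13 (−3.97 ± 0.56), Trim10 (−3.95 ± 0.53), Epb42 (−3.91 ± 0.54), Slc4a1 (−3.78 ± 0.67), Ctse (−3.75 ± 0.60), Hemgn (−3.67 ± 0.53) and Rhd (−3.59 ± 0.56), each with an adjusted p no higher than 1.3e-05. In bulk tissue a change in the share of cells of a type and a change in RNA per cell cannot be told apart. This holds for each list below, whether its genes were higher or lower.

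**Figure D2:**
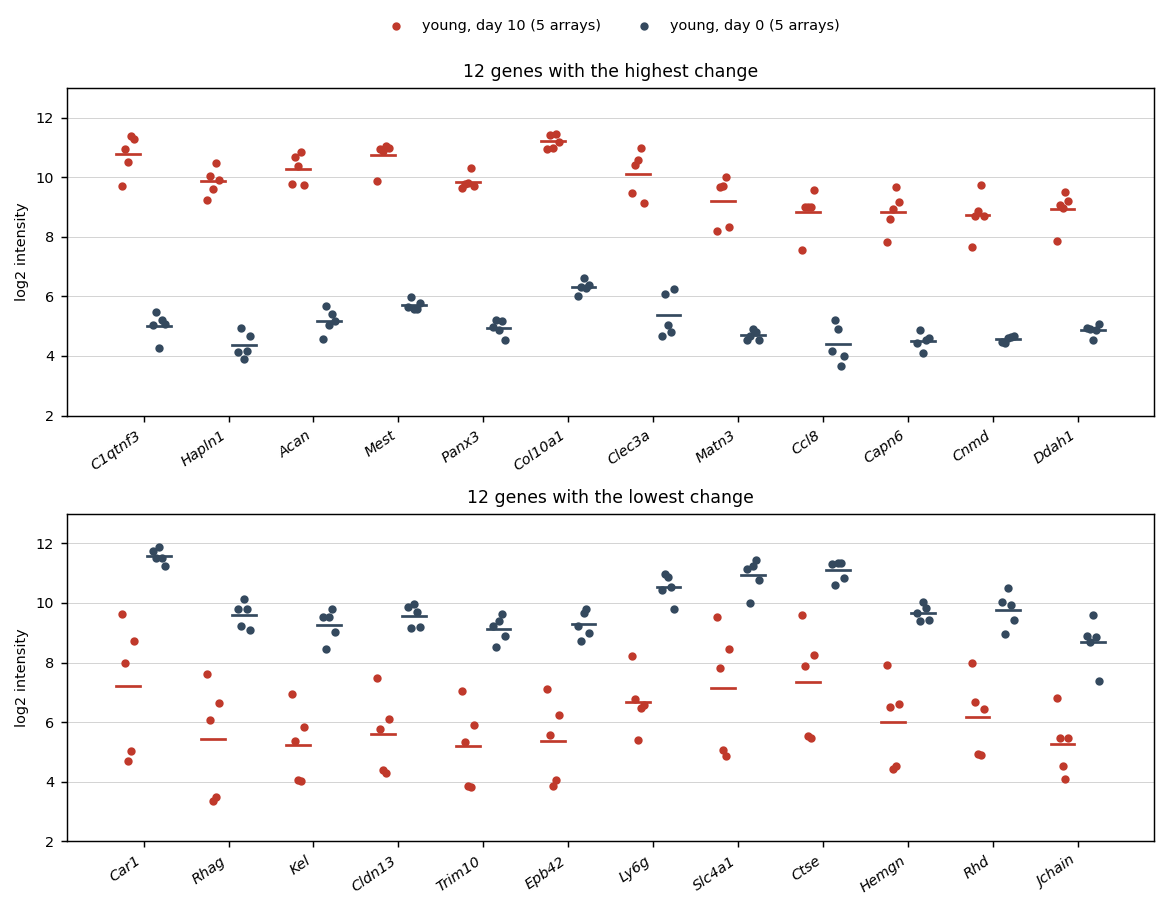
Log2 intensity in each of the 5 day 10 arrays (red, left of each pair) and the 5 day 0 arrays (dark, right) for the 12 genes with the highest and the 12 with the lowest change, with horizontal lines at the group means. The groups do not overlap for any of the 24 genes, and the day 10 values of red-cell genes such as Car1 spread over several log2 units.

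Cartilage matrix genes rose almost as a whole. Of 25 measured, 21 were called higher and none lower, with a median change of 2.40, against 23.2% called higher and a median of −0.02 over all genes. The mean of the list was 7.49 to 8.32 in the day 10 calluses, against 5.33 to 5.75 in the day 0 bones. Beside the genes above, the pentameric matrix protein Comp changed by 3.33 ± 0.35. Col2a1, the main collagen of cartilage, read 8.85, 9.32, 9.72, 9.63 and 8.18 in day 10 calluses, against 5.89, 6.54, 5.92, 6.45 and 6.15 in day 0 bones (2.95 ± 0.37). Its fibril partner Col11a1 changed by 2.95 ± 0.37. The groups of Col2a1 did not overlap. Among the 4 members not called were Chad (1.13 ± 0.47, adjusted p = 0.052) and Matn1 (0.33 ± 0.18, adjusted p = 0.15).

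The regulators of chondrocytes moved less. Of 19 measured, 13 were higher and 1 lower, with a median of 0.65. Sox9, the transcription factor that chondrocytes need to form, had 7.17, 7.59, 7.69, 8.14 and 7.58 at day 10, against 5.81, 6.05, 5.53, 5.88 and 5.93 at day 0 (1.79 ± 0.22). Trps1 (2.61 ± 0.24), a transcription factor of the growth plate, and Pth1r (2.40 ± 0.31), the receptor for parathyroid hormone and its related peptide, rose further. Npr2, the receptor for C-type natriuretic peptide, changed by 1.68 ± 0.18 and Creb5 by 1.27 ± 0.13. Sox6, a partner of Sox9 in chondrocytes that red-cell precursors also express, was the one member that fell (−1.21 ± 0.24). Its values were 7.08, 6.76, 6.82, 7.13 and 6.84 at day 10, against 8.35, 7.33, 8.58, 8.28 and 8.14 at day 0.

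All 12 measured genes of hypertrophic cartilage were higher, with a median of 1.92. The list mean was 9.05 to 9.43 at day 10, against 6.83 to 7.30 at day 0. Slc13a5, a citrate transporter of mineralizing cells, changed by 3.25 ± 0.39. Alpl, the phosphatase that frees phosphate for mineral, read 10.38, 10.10, 10.06, 9.84 and 9.30 at day 10, against 6.94, 7.78, 6.81, 7.27 and 7.62 at day 0 (2.65 ± 0.37). Mmp13, the collagenase of late hypertrophic cartilage and osteoblasts, read 11.48, 11.27, 11.08, 11.18 and 10.95 at day 10, against 8.81, 9.15, 8.71, 9.09 and 9.98 at day 0 (2.04 ± 0.29). Ibsp, the bone sialoprotein made where cartilage meets bone, changed by 2.04 ± 0.29. The day 10 calluses were close to each other for Mmp13, with an SD of 0.20.

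Genes for making and sulphating glycosaminoglycan chains were higher in 18 of 25 and lower in 3 (median 0.97). The largest changes were in sulphate supply. Papss2 and Papss1, which make the sulphate donor, changed by 2.18 ± 0.19 and 1.62 ± 0.14, and the sulphate transporter Slc26a2 by 1.65 ± 0.19. Bpnt2, the Golgi phosphatase that clears the by-product of sulphation, changed by 1.36 ± 0.15. Chsy3 (1.61 ± 0.20), a chondroitin synthase, and Dse (1.57 ± 0.18), which epimerizes dermatan sulphate, were higher too. Chst15 (−0.28 ± 0.16, adjusted p = 0.15) was among the 4 not called.

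Machinery for folding, crosslinking and secreting collagen rose in 26 of 27 genes, none fell, and the median was 1.97. Lox, which crosslinks collagen outside the cell, read 10.43, 10.54, 10.67, 10.59 and 10.59 at day 10, against 6.63, 8.02, 6.42, 6.88 and 7.58 at day 0 (3.46 ± 0.26). Plod2 (2.97 ± 0.35) hydroxylates collagen lysines and P3h1 (2.57 ± 0.22) its prolines. Creb3l1 (3.03 ± 0.31) is a transcription factor of secretory cells, Sec24d (2.47 ± 0.19) a coat protein of the vesicles that carry procollagen, and Loxl4 (2.73 ± 0.31) a relative of Lox. Tmem38b was the member not called (−0.22 ± 0.20, adjusted p = 0.41).

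Of 44 collagen genes 29 were higher and 1 lower, with a median of 1.03. Behind Col10a1 came Col14a1 (3.88 ± 0.27), Col6a3 (3.06 ± 0.25) and Col3a1 (3.01 ± 0.30), collagens of fibrous tissue. Col12a1 changed by 2.93 ± 0.31 and Col5a2 by 2.93 ± 0.33. These collagens of cartilage and fibrous tissue rose in the same calluses, and for Col10a1 the change amounted to 29.6-fold. Col8a2 (0.32 ± 0.15, adjusted p = 0.082) had the smallest p of the 14 not called.

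**Figure D3:**
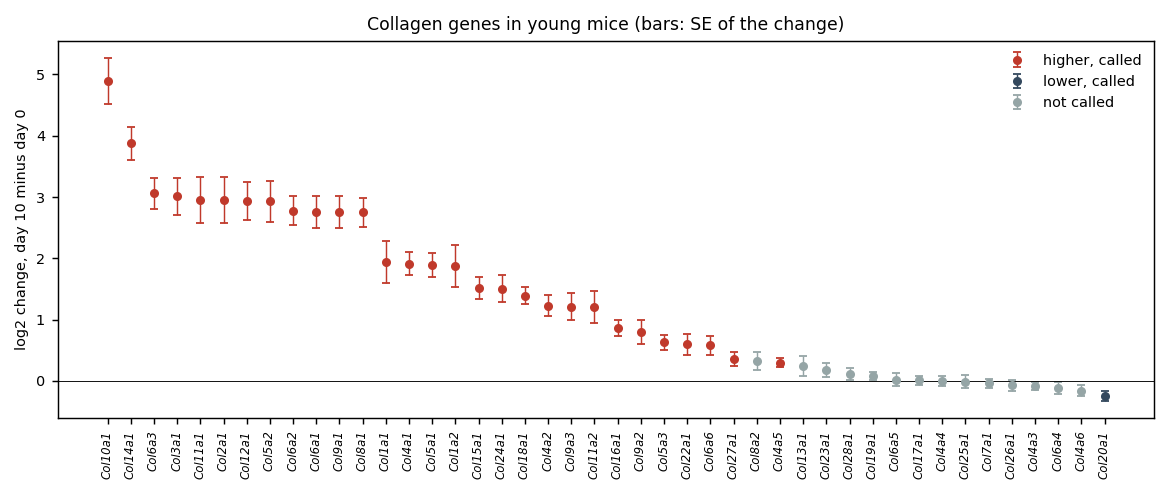
Log2 change (day 10 minus day 0, young mice) of each measured collagen gene, with bars of 1 SE, in order of the change. Red points are genes called higher, grey points genes not called and the dark point the gene called lower, and Col10a1 lies highest.

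Bone-forming transcripts were higher as well. Of 15 osteoblast genes 13 were called higher and none lower (median 1.87). Alpl and Ibsp, given above with hypertrophic cartilage, are also members of this list. The list mean was 9.14 to 9.80 at day 10, against 7.21 to 8.56 at day 0. Sp7, the transcription factor osterix that osteoblasts require, had 9.20, 8.65, 9.03, 8.59 and 8.15 in day 10 calluses, against 6.15, 7.26, 5.75, 6.68 and 6.78 in day 0 bones (2.20 ± 0.35). Smpd3 (2.46 ± 0.34), a sphingomyelinase needed for mineralization, and the osteoblast membrane protein Ifitm5 (2.34 ± 0.37) were higher. Postn, a matrix protein of periosteum, changed by 2.15 ± 0.33. Day 0 replicate 2 gave the highest day 0 mean of this list, and without day 0 replicates 2 and 5 the count was 13 of 15. Dlx3 was not called (0.53 ± 0.25, adjusted p = 0.08).

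Genes that control mineral were higher in 10 of 15 and lower in 2 (median 1.53). Those that rose included Mgp (1.75 ± 0.16), a calcification inhibitor, and Ggcx (1.69 ± 0.18), the vitamin K-dependent enzyme that activates it. Vkorc1 (1.95 ± 0.16), the enzyme that recycles vitamin K, rose too. Gas6, another protein that Ggcx modifies, changed by 2.02 ± 0.19. The inhibitor and both enzymes rose in the same calluses. Osteocyte genes were higher in 6 of 13 and lower in 1 (median 0.37), and in 3 with the 3 arrays per group of the high number series. Pdpn (2.34 ± 0.24), Fbln7 (1.35 ± 0.21), Phex (1.53 ± 0.37) and Dmp1 (1.17 ± 0.45) were higher. The call of Dmp1 was lost (0.97 to 1.00) when any one of day 10 replicates 1 and 3 or day 0 replicates 1 and 3 was left out, with the numbering series as a block (0.92), with quantile normalization (1.03) and with the high number series alone (1.29). Phex lost its call with the high number series alone (1.61). Fgf23, the phosphate hormone of osteocytes, fell (−0.74 ± 0.10). Mepe, a matrix protein of mature osteocytes, was not called (−0.38 ± 0.22, adjusted p = 0.16).

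Among osteoclast genes 10 of 17 were higher and 2 lower (median 0.78). Ctsk, the collagen-degrading protease of osteoclasts, read 11.45, 10.94, 11.24, 10.82 and 10.77 at day 10, against 8.21, 8.50, 8.53, 8.74 and 9.29 at day 0 (2.39 ± 0.31). The fusion genes Ocstamp (2.12 ± 0.36) and Dcstamp (1.87 ± 0.23), the proton pump subunit Atp6v0d2 (2.06 ± 0.36) and the phosphatase Acp5 (1.72 ± 0.33) rose with it. Car2, the carbonic anhydrase of osteoclasts and also of red cells, fell (−3.33 ± 0.53). Replicate 1 had the highest mean of this list among day 10 calluses (8.32) and replicate 4 the lowest (7.34), and the day 0 bones lay at 6.69 to 7.20. Of the signals to osteoclasts, the ligand Tnfsf11 (RANKL, 1.09 ± 0.15), its decoy Tnfrsf11b (osteoprotegerin, 0.87 ± 0.18) and the growth factor Csf1 (1.06 ± 0.17) were all higher. In that list 7 of 10 rose (median 0.64) and 1 fell, the adaptor Tyrobp (−0.57 ± 0.10).

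Fibrous matrix genes were higher in all 27 measured, with a median of 2.45. Cthrc1, secreted by activated fibroblasts, read 10.16, 10.61, 10.65, 10.62 and 10.75 in day 10 calluses, against 6.00, 8.42, 5.52, 6.83 and 7.17 in day 0 bones (3.77 ± 0.37). The large proteoglycan Vcan (3.29 ± 0.27) and the matricellular Thbs2 (3.22 ± 0.30) followed. The mean of this list in day 0 bones was highest in replicates 2 (8.30) and 5 (8.19), still below the lowest day 10 callus (9.72). All 27 members were also called without those bones. All 8 tendon and ligament genes rose (median 1.60). Tnmd, the tendon membrane protein tenomodulin, read 9.76, 10.68, 10.71, 10.63 and 11.04 at day 10, against 6.55, 7.77, 6.29, 6.46 and 7.35 at day 0 (3.68 ± 0.37). The tendon transcription factors Scx (1.45 ± 0.22) and Mkx (1.17 ± 0.20) and the small proteoglycans Fmod (1.93 ± 0.27) and Kera (1.87 ± 0.39) were higher.

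Matrix proteases and their inhibitors were higher in 21 of 24 genes (median 1.64). Mmp2 (2.81 ± 0.25), its activator Mmp14 (2.93 ± 0.25), Mmp23 (2.52 ± 0.27) and Adamts12 (2.68 ± 0.20) rose together with the inhibitor Timp1 (3.31 ± 0.29). Mmp8, the collagenase of neutrophils, was the one that fell (−2.96 ± 0.34). Timp4 (−0.43 ± 0.23, adjusted p = 0.13) was not called.

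Growth-factor pathways were mostly higher. In the hedgehog pathway, whose ligand in cartilage is Ihh, 12 of 14 genes rose and none fell (median 1.08). Ihh itself read 6.72, 6.38, 6.00, 6.58 and 6.31 at day 10, against 5.38, 5.60, 5.47, 5.65 and 5.97 at day 0 (0.78 ± 0.19). Ptch1, the hedgehog receptor and a target that the pathway switches on, read 8.85, 9.26, 8.69, 9.30 and 8.63 at day 10, against 6.27, 5.72, 6.75, 5.93 and 5.72 at day 0 (2.86 ± 0.27). The ligand and the target were both above every day 0 bone. The target Hhip (1.77 ± 0.13), the transcription factors Gli3 (1.73 ± 0.20) and Gli2 (1.23 ± 0.18), the co-receptor Boc (1.42 ± 0.16) and the transducer Smo (1.20 ± 0.17) were higher.

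Of 33 BMP and TGF-beta genes 22 rose and 1 fell (median 0.68). The ligands Tgfb3 (2.59 ± 0.24), Tgfb2 (1.48 ± 0.23) and Bmp5 (1.59 ± 0.26), the receptors Bmpr1a (1.86 ± 0.20) and Tgfbr2 (1.48 ± 0.14) and the target Id3 (1.76 ± 0.24) changed most. Id2, another target, was not called (−0.26 ± 0.12, adjusted p = 0.084). In the Wnt list 21 of 33 rose and 1 fell (median 0.66). Its top members were the secreted antagonists Sfrp2 (3.69 ± 0.33), Sfrp1 (3.68 ± 0.37), Frzb (3.09 ± 0.37) and Dkk2 (1.88 ± 0.15) and the receptors Fzd2 (1.78 ± 0.20) and Fzd1 (1.77 ± 0.17). Sfrp2 read 10.28, 10.89, 11.14, 11.20 and 11.11 at day 10, against 7.19, 7.50, 6.19, 7.08 and 8.22 at day 0, so the groups did not overlap. Axin2, a common readout of Wnt signalling, was not called (0.23 ± 0.13, adjusted p = 0.18).

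Insulin-like, fibroblast and platelet-derived growth factor genes were higher in 21 of 24 and lower in 2 (median 1.44). Igf1 read 9.50, 10.34, 10.49, 10.82 and 10.65 at day 10, against 7.85, 8.39, 7.42, 7.43 and 7.74 at day 0 (2.59 ± 0.20). Igf2 changed by 2.64 ± 0.28, and the binding proteins Igfbp3 (3.49 ± 0.22), Igfbp7 (2.16 ± 0.15) and Igfbp4 (2.15 ± 0.17) rose with the ligands they hold. Pdgfra, a receptor of mesenchymal cells, changed by 1.93 ± 0.18. Notch genes rose in 8 of 14 (median 0.39), chiefly the target Hey1 (2.08 ± 0.22), its relative Heyl (1.52 ± 0.25) and the ligand Jag1 (1.49 ± 0.15).

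Vessel transcripts were higher at day 10. Among endothelial genes 20 of 23 rose and 2 fell (median 1.24). Cdh5, the cadherin of endothelial junctions, read 9.58, 9.53, 9.26, 9.20 and 8.88 at day 10, against 6.94, 6.58, 7.17, 6.97 and 7.67 at day 0 (2.22 ± 0.17). The apelin receptor Aplnr (2.94 ± 0.23) and the sialomucin Emcn (2.26 ± 0.18) rose further. The genes that fell were Vwf (−1.27 ± 0.19), which platelets also carry, and Stab2 (−1.15 ± 0.26), known from marrow sinusoids. Genes of pericytes and smooth muscle rose in 13 of 14 (median 1.43), led by the smooth muscle actin Acta2 (3.08 ± 0.27), Rgs5 (2.18 ± 0.24) and Cspg4 (2.11 ± 0.26). Of the ligands that guide vessels 10 of 15 rose (median 0.68), with Sema3c at 2.48 ± 0.28, Slit3 at 1.77 ± 0.22 and Vegfd at 1.72 ± 0.22. Vegfa, which draws vessels into hypertrophic cartilage, changed by 0.68 ± 0.16.

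Marrow lineages were lower, and red cells most. All 20 measured erythroid genes fell, with a median of −3.19, against 19.8% called lower over all genes. The list mean in the 5 day 10 calluses was 7.27, 5.96, 4.85, 4.82 and 6.40, against 8.31 to 9.34 in the day 0 bones. Replicate 1 carried the most and replicates 3 and 4 the least. Genes of heme synthesis and iron were lower in 13 of 19 (median −1.40), with the mitochondrial iron importer Slc25a37 at −3.38 ± 0.44 and the first heme enzyme of red cells, Alas2, at −2.91 ± 0.38. Of the 3 called higher, 1 was called without day 0 replicate 2 and none without day 0 replicates 2 and 5.

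GATA1, the master transcription factor of red cells, binds the letters AGATAA or their reverse complement TTATCT. These letters stood in 6 of 14 erythroid promoters with a RefSeq entry (42.9%), in 9.58% of the promoters of genes called lower and in 9.76% of all 12935 promoters. A promoter here is the stretch 250 bases before to 50 bases after the start of a gene. Below are the promoters of Kel (chr6:41704276-41704575, minus strand), a red-cell surface antigen, and Trim10 (chr17:36869324-36869623, plus strand), a ubiquitin ligase of red-cell maturation. They come from RefSeq (GRCm38.p6) and are printed 5′ to 3′ with the letters in capitals. Both were picked as the erythroid genes of largest change among those whose promoter holds the letters, so the match in them follows from the choice.
Kel: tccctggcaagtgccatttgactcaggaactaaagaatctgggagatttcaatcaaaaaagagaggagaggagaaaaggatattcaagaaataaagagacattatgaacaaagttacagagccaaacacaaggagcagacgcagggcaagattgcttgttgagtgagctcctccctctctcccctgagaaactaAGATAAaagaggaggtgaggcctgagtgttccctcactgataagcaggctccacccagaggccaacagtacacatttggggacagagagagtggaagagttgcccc
Trim10: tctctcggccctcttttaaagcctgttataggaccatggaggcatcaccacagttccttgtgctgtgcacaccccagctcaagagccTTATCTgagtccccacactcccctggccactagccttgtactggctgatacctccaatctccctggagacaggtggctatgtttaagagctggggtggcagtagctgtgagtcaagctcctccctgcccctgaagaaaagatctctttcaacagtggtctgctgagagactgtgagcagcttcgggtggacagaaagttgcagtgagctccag

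Neutrophil genes were lower in 23 of 24 (median −2.38). The list mean was 8.78 in replicate 1 of day 10 and at most 7.96 in the other calluses, against 9.81 to 10.38 in the day 0 bones. Cxcr2, the chemokine receptor that releases neutrophils from marrow, read 7.98, 6.69, 6.20, 6.84 and 6.98 at day 10, against 10.54, 9.40, 10.14, 10.18 and 9.68 at day 0 (−3.05 ± 0.33). The granule protein Ltf (−2.93 ± 0.48), Chil3 (−2.72 ± 0.44) and the precursor marker Ms4a3 (−2.74 ± 0.44) fell too. Mmp9, which osteoclasts also make, was the one member called higher (1.05 ± 0.39), a call lost (0.70 to 0.99) when any one of day 10 replicates 1, 2 and 3 or day 0 replicate 2 was left out. It was also lost without day 0 replicates 2 and 5 (0.54), with array quality weights (0.76), with the numbering series as a block (0.80), with the high number series alone (0.82), with quantile normalization (0.84) and with only the groups compared in the fit (1.05).

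PU.1, a transcription factor of myeloid cells, binds sites around the letters GAGGAA, or TTCCTC on the other strand. These were found in 14 of 20 neutrophil promoters (70.0%), in 28.2% of the promoters of genes called lower and in 27% of all. Those of Cxcr2 (chr1:74153744-74154043, plus strand) and Mmp8 (chr9:7558179-7558478, plus strand) are shown in the same way. Both were picked as the neutrophil genes of largest change among those whose promoter holds the letters. The match in them thus follows from the choice.
Cxcr2: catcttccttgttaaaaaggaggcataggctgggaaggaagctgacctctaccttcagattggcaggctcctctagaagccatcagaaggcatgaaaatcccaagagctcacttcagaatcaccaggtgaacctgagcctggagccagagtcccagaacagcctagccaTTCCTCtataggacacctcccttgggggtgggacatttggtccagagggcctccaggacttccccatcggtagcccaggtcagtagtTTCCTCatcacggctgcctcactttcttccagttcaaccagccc
Mmp8: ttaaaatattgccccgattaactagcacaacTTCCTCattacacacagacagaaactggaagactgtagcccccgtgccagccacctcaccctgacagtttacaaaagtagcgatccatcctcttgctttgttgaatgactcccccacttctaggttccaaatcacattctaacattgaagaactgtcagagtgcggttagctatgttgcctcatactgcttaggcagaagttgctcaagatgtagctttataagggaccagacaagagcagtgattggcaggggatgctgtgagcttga

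B-cell genes were lower in 23 of 24 (median −1.96), for both mature and precursor stages. Ms4a1, which encodes CD20 of mature B cells, read 4.60, 4.29, 4.52, 4.44 and 4.26 at day 10, against 7.93, 7.24, 8.05, 7.70 and 6.73 at day 0 (−3.11 ± 0.39). Vpreb3 (−2.92 ± 0.32) and Vpreb1 (−2.39 ± 0.34) of B-cell precursors and the receptor chain Cd79b (−2.73 ± 0.32) fell as well. Ebf1, a B-cell transcription factor that stromal cells also use, rose (1.18 ± 0.17). Plasma-cell genes split, 4 of 10 higher and 4 lower (median −0.11). Those that rose include Fkbp11 (2.38 ± 0.24) and Sdc1 (1.56 ± 0.19), which other secretory or matrix cells express, and those that fell include Mzb1 (−1.33 ± 0.28) and the immunoglobulin gene Ighm (−1.86 ± 0.25).

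Platelet genes fell in 10 of 11 (median −1.90), with the platelet chemokine Ppbp at −3.37 ± 0.58 and the receptor Clec1b at −3.02 ± 0.36. Blood progenitor genes fell in 11 of 17 (median −0.68), led by the transcription factor Myb (−2.93 ± 0.34). Cd34, which vessel cells carry too, rose (1.77 ± 0.16). Of eosinophil, mast-cell and basophil genes 10 of 16 fell (median −0.75), among them the basophil protease Mcpt8 (−2.83 ± 0.37) and the eosinophil granule protein Prg2 (−2.71 ± 0.51). Mcpt4, a protease of connective-tissue mast cells, rose (1.96 ± 0.22). T-cell and natural killer genes were lower in 11 of 26 (median −0.43, 46.2% called against 43.0% of all genes), of which Nkg7 (−2.30 ± 0.47) changed most. The T-cell receptor subunit Cd3e was not called (−0.65 ± 0.29, adjusted p = 0.064). Thy1, which fibroblasts express, was the one that rose (2.50 ± 0.32). Cxcl12, the niche chemokine of marrow stroma, was not called (−0.19 ± 0.16, adjusted p = 0.37), and in the marrow stroma list 4 of 10 were higher (2 without day 0 replicates 2 and 5, and 2 without day 10 replicate 2 or without day 0 replicate 3) and 3 lower (median −0.06).

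**Figure D4:**
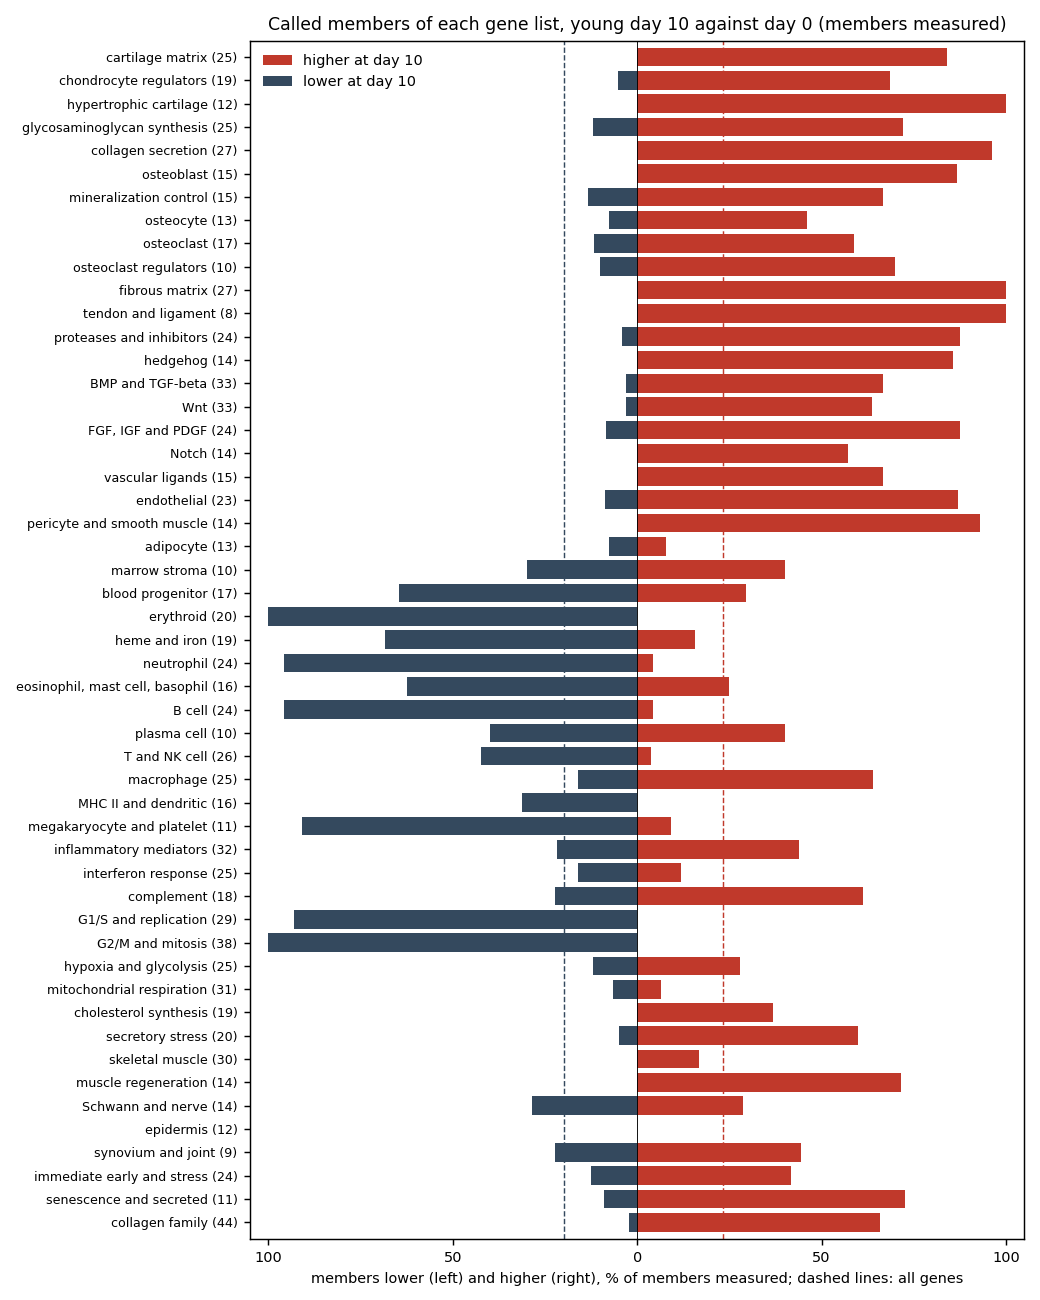
Share of the measured members of each gene list (number in brackets) called higher (red, right) or lower (dark, left) in young day 10 calluses against day 0 bones, in percent. The dashed lines mark 23.2% higher and 19.8% lower over all genes. Cartilage, fibrous, tendon and collagen lists reach far right, and erythroid, neutrophil, B-cell and cell-division lists far left.

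Cell-division transcripts were lower at day 10 than in day 0 bones. All 38 measured genes of G2/M and mitosis fell (median −1.46), and 27 of 29 genes of G1/S and DNA replication (median −1.20). Mki67, the proliferation marker Ki-67, read 9.23, 8.65, 8.24, 8.32 and 8.62 in day 10 calluses, against 10.70, 10.59, 10.83, 10.92 and 10.45 in day 0 bones (−2.09 ± 0.28). Cdc6, which loads the replicative helicase, read 5.52, 4.83, 4.37, 4.67 and 5.01 at day 10, against 7.11, 6.86, 7.25, 7.49 and 6.82 at day 0 (−2.23 ± 0.29). Neither gene overlapped between the groups. Rrm2 (−2.09 ± 0.40), which makes deoxynucleotides, the cyclins Ccne1 (−1.74 ± 0.26) and Ccna2 (−1.78 ± 0.25), the helicase subunit Mcm3 (−1.56 ± 0.24) and Birc5 (−1.80 ± 0.25) fell with them. The mitosis list mean was 7.24, 6.87, 6.72, 6.84 and 7.05 in day 10 replicates 1 to 5, and 8.0 to 8.73 in day 0 bones. In the same calluses the erythroid list mean was 7.27, 5.96, 4.85, 4.82 and 6.40. At day 5 the means of the young mice were 7.76 for the mitosis list and 5.58 for the erythroid list. The part of red-cell precursors in this result was not tested.

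E2F factors, which switch on replication genes, bind the letters TTCCCGC or GCGGGAA. They occurred in 9 of 22 promoters of G1/S and replication genes (40.9%), in none of 30 promoters of mitosis genes and in 6.46% of all promoters. The promoters of Cdc6 (chr11:98907901-98908200, plus strand) and Mcm3 (chr1:20820263-20820562, minus strand) carry them and were picked for that in the same way.
Cdc6: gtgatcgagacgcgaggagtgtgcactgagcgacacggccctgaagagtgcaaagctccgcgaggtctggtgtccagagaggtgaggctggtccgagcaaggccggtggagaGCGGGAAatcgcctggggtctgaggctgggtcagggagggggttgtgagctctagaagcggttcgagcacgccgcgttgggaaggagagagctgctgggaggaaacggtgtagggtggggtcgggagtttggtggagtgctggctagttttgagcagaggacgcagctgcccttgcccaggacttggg
Mcm3: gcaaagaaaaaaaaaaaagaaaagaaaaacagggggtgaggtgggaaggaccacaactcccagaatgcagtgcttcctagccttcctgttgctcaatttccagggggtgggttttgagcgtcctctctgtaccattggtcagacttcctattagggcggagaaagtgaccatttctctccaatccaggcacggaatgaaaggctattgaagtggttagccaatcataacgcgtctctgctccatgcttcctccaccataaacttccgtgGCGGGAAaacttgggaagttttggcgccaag
Each motif was searched on both strands, and none of the letter strings contains another. The letters ACAAAG or CTTTGT, to which SOX proteins bind, stood in 1 of 16 cartilage matrix promoters (6.25%) and in 16.8% of all. A match is a run of letters and no measured site.

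Macrophage genes were higher in 16 of 25 and lower in 4 (median 0.89). The lectin receptor Clec4n (2.48 ± 0.31), Ms4a7 (1.98 ± 0.24), the lysosomal protein Cd68 (1.59 ± 0.26) and the complement chains C1qb (1.95 ± 0.27), C1qa (1.58 ± 0.28) and C1qc (1.18 ± 0.23) rose. Cd68 read 10.44, 10.12, 10.08, 9.23 and 9.72 at day 10, against 9.15, 7.70, 8.87, 7.97 and 7.94 at day 0. Its groups did not overlap. With the high number series alone Cd68 (1.10) and C1qc (0.82) lost their calls. The 4 that fell included the marrow macrophage genes Spic (−1.07 ± 0.37) and Cd5l (−1.09 ± 0.24) and the monocyte receptor Ccr2 (−1.03 ± 0.21). Spic lost its call (−0.96 to −0.72) without day 10 replicate 3, day 0 replicate 1 or day 0 replicate 3, and with only the groups compared in the fit (−1.07). Cd163 was not called (−0.50 ± 0.29, adjusted p = 0.18).

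Inflammatory mediators moved both ways, with 14 of 32 higher and 7 lower (median 0.39). Ccl8 read 7.55, 9.02, 9.02, 9.01 and 9.58 at day 10, against 4.18, 5.20, 4.90, 3.65 and 4.0 at day 0, and its neighbour Ccl7 changed by 2.43 ± 0.39. Ptgs2, the inducible cyclooxygenase, read 7.87, 8.97, 8.88, 9.51 and 9.12 at day 10, against 5.11, 5.54, 5.85, 6.63 and 5.67 at day 0 (3.11 ± 0.34). The hyaluronan-binding Tnfaip6 (3.04 ± 0.32) and the alarmin Il33 (2.33 ± 0.21) were higher. Il1a, by contrast, read 3.46, 3.45, 3.03, 3.27 and 3.38 at day 10, against 5.46, 5.24, 5.88, 5.15 and 4.69 at day 0 (−1.96 ± 0.29), and Il1b changed by −1.48 ± 0.36. Ccl8, Ccl7 and Ptgs2 were thus above day 0, while both interleukin 1 genes were below it. Il6 was not called (0.85 ± 0.44, adjusted p = 0.12).

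Complement genes were higher in 11 of 18 and lower in 4 (median 0.84), with C1s1 at 2.30 ± 0.21, factor B (Cfb) at 2.04 ± 0.20 and the receptor C3ar1 at 1.81 ± 0.23. With the numbering series as a block 2 were lower, and with the high number series alone 1. Interferon-response genes showed no common direction, 3 of 25 higher and 4 lower (median −0.04). Ifit3 rose (1.40 ± 0.33), and Rsad2 fell (−2.96 ± 0.36). The share called, 28.0%, lay below the 43.0% of all genes. Of genes for antigen presentation on MHC II and dendritic cells 5 of 16 fell (median −0.21, 31.2% called, below the share of all genes), led by Siglech (−2.0 ± 0.20) of plasmacytoid dendritic cells and H2-Ob (−1.96 ± 0.28) of B cells. The class II chain H2-Aa was not called (0.32 ± 0.21, adjusted p = 0.22).

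In the list of hypoxia and glycolysis 7 of 25 rose and 3 fell (median 0.22). The 40% called lay close to the 43.0% of all genes. The oxygen sensor's transcription factor Hif1a (2.24 ± 0.23), the carbonic anhydrase Car12 (1.78 ± 0.32) and Adm (1.33 ± 0.19) rose, while the glucose transporter Slc2a3 fell (−2.22 ± 0.25). Ldha, the last step of glycolysis to lactate, was not called (0.22 ± 0.12, adjusted p = 0.13). Of 31 respiration genes 2 were higher and 2 lower (median 0.00, 12.9% called), against 0 to 4 higher and 0 to 7 lower under the alternatives tried. Cholesterol synthesis was higher in 7 of 19 (median 0.24), with Hmgcs1 at 1.22 ± 0.14. Its 36.8% called was below the 43.0% of all genes. It was higher in 4 without day 0 replicates 2 and 5 and in 3 with the high number series alone. In the list of secretory stress 12 of 20 rose (median 0.32), led by the disulphide isomerase Pdia4 (0.98 ± 0.16), and the stress factor Ddit3 fell (−0.57 ± 0.14). With the high number series alone 7 rose.

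Soft tissues around the bone could enter the extracts. Skeletal muscle genes were higher in 5 of 30 and lower in none (median 0.14), so that 16.7% were called against 43.0% of all genes. The list mean was 9.54 to 10.07 at day 10, against 8.82 to 10.08 at day 0. Those that rose included the slow-fibre genes Tnni1 (2.49 ± 0.34) and Tnnc1 (2.44 ± 0.37) and the desmin gene Des (1.43 ± 0.34). The fast-fibre actinin gene Actn3 was not called (0.43 ± 0.34, adjusted p = 0.33). Genes of regenerating muscle rose in 10 of 14 (median 1.30). Myog, the transcription factor of fusing myoblasts, read 5.60, 7.27, 6.61, 6.29 and 7.35 at day 10, against 5.00, 5.05, 4.47, 4.98 and 4.75 at day 0 (1.77 ± 0.30). The embryonic myosin Myh3 (1.85 ± 0.35) and the muscle acetylcholine receptor subunit Chrna1 (2.43 ± 0.29) rose as well. Of 12 epidermal genes limma called 0, with 0 at an unadjusted p under 0.05 and 1 called without day 0 replicates 2 and 5. Their list mean was 4.37 to 4.95 at day 10, against 4.36 to 5.00 at day 0. Adipocyte genes were called in 2 of 13, Lpl higher (0.69 ± 0.22) and Lep lower (−0.36 ± 0.11), a share of 15.4% (median 0.02). With the high number series alone neither was called (0.64 and −0.28), and Lep was not called with only the groups compared in the fit. Schwann-cell and nerve genes rose in 4 of 14 and fell in 4 (median −0.08, 57.1% called against 43.0% of all genes). Over all genes 23.2% were higher and 19.8% lower. With the high number series alone 3 of these nerve genes rose and 1 fell. Of 9 synovial and joint genes 4 rose, the largest being Abi3bp (2.02 ± 0.24), and 2 fell (0 without day 0 replicates 2 and 5), with a median of 0.35.

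Immediate early and stress genes rose in 10 of 24 and fell in 3 (median 0.09). Of them 54.2% were called, against 43.0% of all genes (23.2% higher and 19.8% lower). Jun led those that rose (1.36 ± 0.21) and Zfp36 those that fell (−0.78 ± 0.19). Without day 10 replicate 2, with quantile normalization or with the high number series alone, 6 rose. Of the list of senescence and secreted factors 8 of 11 rose and 1 fell (median 1.58). Those that rose are mostly binding proteins and proteases named above, together with the cell-cycle inhibitor Cdkn2b (1.61 ± 0.21). Lmnb1, a nuclear lamin, fell (−1.79 ± 0.19).

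Day 10 was a peak for cartilage within the young mice. A gene was placed at its highest when day 10 exceeded days 0, 5 and 20, each at adjusted p under 0.05, and 496 genes (2.49%) met this. The opposite held for 212 genes (1.06%), or 114 without day 10 replicate 3 and 124 without day 10 replicate 4. Days 5 and 20 share no array with day 10, while each contrast shares the day 10 arrays. Of 25 cartilage matrix genes 15 were highest at day 10. Median differences of this list were 1.52 from day 5 and 1.20 from day 20. The mean of the list over days 0, 5, 10 and 20 is drawn in the plot of list means by day.

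Matn3, a matrilin of cartilage matrix, had the largest margin. Its means were 4.69 ± 0.16 at day 0, 5.69 ± 1.23 at day 5, 9.19 ± 0.85 at day 10 and 5.29 ± 0.45 at day 20 (SD, n = 5 each). Day 10 exceeded day 5 by 3.50 ± 0.41 and day 20 by 3.90 ± 0.41. Cnmd, the vessel inhibitor chondromodulin, stood at 4.56 ± 0.11, 5.24 ± 1.15, 8.74 ± 0.74 and 5.16 ± 0.34 on days 0, 5, 10 and 20. Hapln1 stood at 4.37 ± 0.43, 6.42 ± 1.44, 9.86 ± 0.46 and 6.36 ± 0.51 on the same days. Both were highest at day 10. Their day 5 means lay above those of day 0, a difference that was not tested. Acan (5.17 ± 0.41, 7.79 ± 1.12, 10.29 ± 0.51 and 7.42 ± 0.72), Clec3a (5.37 ± 0.74, 5.07 ± 1.21, 10.11 ± 0.78 and 7.27 ± 0.94) and Col10a1 (6.32 ± 0.22, 6.53 ± 1.05, 11.21 ± 0.23 and 8.50 ± 0.32) were highest on day 10 too. Zim1, an imprinted zinc finger gene, exceeded day 5 by 2.84 ± 0.24 and day 20 by 2.89 ± 0.24, and Pamr1 by 2.50 ± 0.27 and 2.41 ± 0.27.

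Other lists shared the peak in part. Day 10 was highest for 8 of 24 growth factor genes, Igf1 (7.77 ± 0.40, 9.49 ± 0.34, 10.36 ± 0.51 and 8.85 ± 0.18 on days 0, 5, 10 and 20) and Igf2 among them, and for 5 of 14 hedgehog genes. Ptch1 stood at 6.08 ± 0.44, 6.41 ± 0.63, 8.94 ± 0.32 and 7.07 ± 0.21 on days 0, 5, 10 and 20, and Ihh at 5.61 ± 0.22, 5.52 ± 0.29, 6.40 ± 0.28 and 5.73 ± 0.13. Both pathway genes were thus highest at day 10 by all of the tests. None of 15 osteoblast and none of 17 osteoclast genes was highest at day 10. Over all genes 2.49% were, so lists of this size could hold none at that share. Mmp13 had 9.15 ± 0.50, 9.85 ± 0.56, 11.19 ± 0.20 and 11.98 ± 0.09 on days 0, 5, 10 and 20, and Ctsk 8.65 ± 0.40, 10.37 ± 0.53, 11.04 ± 0.29 and 11.93 ± 0.15. The day 20 means of both lay above those of day 10, where the adjusted p of that difference was 0.054 for Mmp13 and 0.046 for Ctsk. Median differences of day 10 from day 20 were −0.32 over osteoblast genes and −0.33 over osteoclast genes.

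Genes at their lowest at day 10 were led by Il1b, with 7.90 ± 0.48, 7.56 ± 0.92, 6.42 ± 0.41 and 7.53 ± 0.51 on days 0, 5, 10 and 20. Lmnb1 stood at 9.01 ± 0.20, 8.20 ± 0.26, 7.22 ± 0.41 and 8.08 ± 0.42. For the tetraspanin gene Cd82, day 10 minus day 5 was −0.84 ± 0.17 and day 10 minus day 20 was −1.03 ± 0.17. For Pnp these differences were −0.86 ± 0.21 and −0.81 ± 0.21, and for the kinase Bmp2k −0.79 ± 0.13 and −0.86 ± 0.13. Of 38 mitosis genes 1 was lowest at day 10 by all of the tests, where 1.06% of all genes were. Median differences of that list were −0.86 from day 5 and −0.19 from day 20. With the numbering series as a block 212 genes were highest and 68 lowest at day 10, and the series is tied to the day, since young day 5 and young day 20 each came from 1 series.

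**Figure D5:**
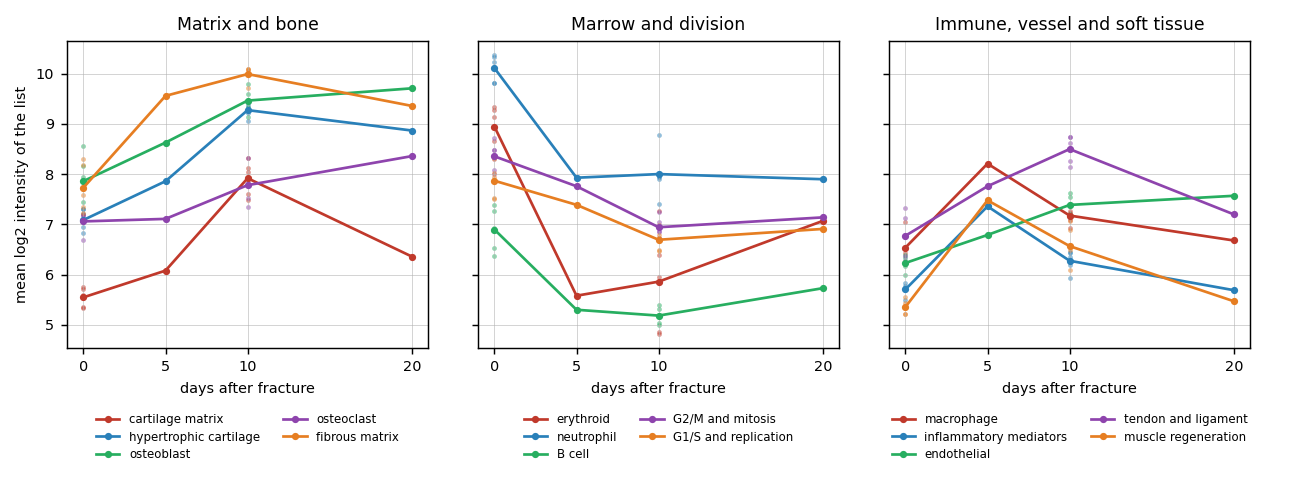
Mean log2 intensity of the measured members of 15 gene lists in young mice at days 0, 5, 10 and 20 after fracture. Large points joined by lines are group means of 5 arrays, and small points at days 0 and 10 are single arrays. The cartilage matrix list is highest at day 10, and the erythroid list at day 0.

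Mice aged 25 months were measured on the same days, and the change of each gene was compared between ages in an interaction contrast. No gene of 19938 was called by limma (0.0%), with 1034 (5.19%) at an unadjusted p under 0.05 and a smallest adjusted p of 0.14. With array quality weights 31 were called, and with single arrays left out 0 to 5 (5 without old day 10 replicate 1, 4 without old day 0 replicate 4, 3 without young day 10 replicate 1 and 2 without young day 0 replicate 1). A p above the threshold does not show that the ages were alike. Acan changed by 6.52 ± 0.48 in old mice and by 5.12 ± 0.50 in young mice, and Car1 by −5.45 ± 0.63 in old mice and −4.36 ± 0.66 in young mice. Ccl8 had the smallest p of the contrast. Old mice had 8.42 ± 0.65 at day 10 and 6.32 ± 0.75 at day 0, and young mice 8.84 ± 0.76 at day 10 and 4.39 ± 0.65 at day 0 (SD, n = 5, and 6 for old day 0). Its change in old minus that in young mice was −2.35 ± 0.46 (adjusted p = 0.14). The same difference was −1.31 ± 0.26 for the complement gene C4b, −1.12 ± 0.24 for Mgst1, −1.41 ± 0.30 for Mcpt4 and 0.76 ± 0.16 for Dusp18, each with an adjusted p of 0.14.

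Among the day 10 calluses themselves red-cell genes varied most. The median SD over all genes was 0.16 at day 10 and 0.19 at day 0. The largest day 10 SDs were those of Car1 (mean 7.22 ± 2.23), Slc4a1 (7.14 ± 2.09), Rhag (5.43 ± 1.92), Ctse (7.34 ± 1.81), Ppbp (8.72 ± 1.76) and Car2 (7.94 ± 1.51). Slc4a1, the anion exchanger of red cells, read 9.52, 7.83, 5.05, 4.86 and 8.45 in replicates 1 to 5, and Ppbp read 10.57, 9.59, 6.68, 6.99 and 9.78. Replicate 1 was the highest in both, and replicates 3 and 4 the lowest. The callus with the most red-cell transcripts, replicate 1, had the lowest cartilage matrix mean, and replicates 3 and 4 had the highest. That mean was 7.49, 8.05, 8.13, 8.32 and 7.61 in replicates 1 to 5.

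The authors' deposited table holds its own contrast of these groups. At a step-up p under 0.05 it listed 11293 of 28815 probe sets, 5729 higher and 5564 lower. Of the genes tested here, 8447 had such a p in the authors' deposited table, and 8374 of them were among the 8565 called. In the authors' deposited table the ratio of day 10 over day 0 was 34.7 for Acan, 29.6 for Col10a1 and 0.0487 for Car1.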

How the data were processed

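Total RNA of bones and calluses was measured on 41 Affymetrix Mouse Gene 1.0 ST arrays, of which 10 were compared here. The log2 values are normalized intensities that the authors deposited. The submitters' processing notes name Partek, with no version, and no header or label states how background was corrected or probes summarized. The authors' deposited table also holds p-value columns and ratio columns for their own contrasts, per the file headers, which were used only where the authors' deposited table is named. Its ratios matched ratios of the group means within 6e-05 log2 units. Signed fold columns (other) and F and sum-of-squares columns (score) were deposited by the authors, per the file headers, and were not used. No column of values lacked a sample, and the 2 tables of values deposited did not differ in any cell (largest difference 0.0). Array medians ran from 5.374 to 5.483 log2 units, so no normalization was added. The number of arrays limits the precision.

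Of 28815 probe sets 23380 were in GEO's platform annotation and 5435 were not. Those naming several genes (1598) were left out, which left 21782 with 1 gene, 91 of them with a gene not in the RefSeq table (kept under the annotation's symbol). For 999 genes with several probe sets the one with the highest mean was used, which gave 19938 genes. Groups follow the age and day in the labels. Replicates are different mice, and the shared replicate numbers pair nothing. Deviations from the group mean of same-numbered arrays correlated at −0.22 to 0.18.

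A limma 3.58.1 model (lmFit, eBayes) in R 4.3.3 gave each of 8 groups a mean, with 33 residual degrees of freedom, two-sided tests and Benjamini-Hochberg adjustment over all genes of a contrast. SE is the moderated standard error and SD the spread of a group. The fit of young day 10 against day 0 was tested on simulated data of 19938 genes. Noise was drawn separately for each gene and array, and only a small part of the genes was shifted. Shifts of 0.5, 1 and 2 log2 units were recovered in 66%, 98% and 100% of the changed genes, and 6.2% of calls were false. Differences that genes of an array share were not simulated, so 6.2% is not the false-call rate of the real data. Summaries were made with pandas 2.3.3 and numpy 2.4.6 in python 3.11.15, and plots with matplotlib 3.10.9. A list is described by counts and mostly by the median of its members, to be read against 23.2% higher, 19.8% lower and a median of −0.02 over all genes. No list was tested as a set. Some genes belong to several lists, Alpl, Ibsp and Smpd3 among them, so the counts of such lists are not independent. List members whose symbol matched no probe set were left out. Promoters came from RefSeq (GRCm38.p6), for 12935 measured genes with 1 promoter entry.

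The comparison, the 51 lists of genes, the motifs and the tests were chosen with earlier results of these data known. Genes were named by a rule: the 12 highest and 12 lowest called without overlap (predicted genes skipped), from each list up to 6 members called and 3 not called, 8 collagen genes, the 8 genes at their highest and 5 at their lowest at day 10 with the largest margin, the 5 with the smallest p in the age contrast, and the 6 with the largest SD among day 10 arrays. Ccr2, Cd5l, Ebf1, Ihh, Mmp9, Spic, Stab2, Vegfa, Vwf and the imprinted genes Peg3, Grb10, Plagl1, Cdkn1c and Dlk1 were named after their values were seen.

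Alternatives were quantile normalization, median centring, leaving out the dimmest genes (14953 or 9969 genes left), the mean of probe sets, all probe sets, an unmoderated test, eBayes with trend and robust, array quality weights, a replicate or numbering series block, a fit on the groups compared only, a change of at least 1 log2 unit, the high number series alone and each array left out. A fit without day 0 replicates 2 and 5 was chosen after seeing the data.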

Additional observations from a re-analysis of the deposited data

Results flagged for a closer look

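In 28 of 470 groups of 5 arrays (235 genes named in the text, day 10 and day 0 of young mice), 1 array lay far from the other 4, with a gap to the nearest of over 0.71 of the range of the group (Dixon's criterion). Chance flags about 1 in 20 groups. The flags were unevenly spread, since 12 of the 28 fell on replicate 1 of day 10, each time as the lowest array, and 6 on replicate 5 of day 0. Replicate 1 of day 10 was the lowest array for Abi3bp 9.28 (others 10.10 to 10.41), C1s1 7.76 (others 8.48 to 8.66), Ccl8 7.55 (others 9.01 to 9.58) and Clec4n 6.41 (others 7.13 to 7.34). It was also the lowest for Col14a1 8.25 (others 9.38 to 9.60), Col3a1 10.82 (others 11.32 to 11.46), Cthrc1 10.16 (others 10.61 to 10.75) and Ebf1 8.31 (others 8.70 to 8.78). It was also the lowest for Mest 9.87 (others 10.90 to 11.04), Pdpn 8.22 (others 8.84 to 9.09), Plagl1 8.44 (others 9.57 to 9.78) and Vcan 9.26 (others 9.89 to 10.02). Replicate 3 of day 10 was the highest array for Fkbp11 8.41 (others 8.14 to 8.21). Replicate 3 of day 10 was the lowest array for Mgp 11.90 (others 12.20 to 12.31). Replicate 4 of day 10 was the highest array for Panx3 10.33 (others 9.65 to 9.82). Replicate 4 of day 10 was the lowest array for Lpl 8.69 (others 9.16 to 9.26). Replicate 2 of day 0 was the highest array for Hif1a 8.20 (others 7.53 to 7.71) and Trps1 7.76 (others 6.60 to 6.88). Replicate 2 of day 0 was the lowest array for Acp5 8.45 (others 9.47 to 9.83). Replicate 4 of day 0 was the highest array for Tnnc1 7.58 (others 5.45 to 6.05) and Vpreb1 9.84 (others 8.65 to 8.93). Replicate 4 of day 0 was the lowest array for Mcpt4 5.13 (others 5.41 to 5.51). Replicate 5 of day 0 was the highest array for Frzb 5.08 (others 3.99 to 4.28), Id3 8.27 (others 7.60 to 7.79), Igf2 6.66 (others 6.23 to 6.30) and Pamr1 5.23 (others 4.69 to 4.79). Replicate 5 of day 0 was the lowest array for Il6 3.29 (others 3.68 to 3.74) and Mmp8 10.23 (others 10.96 to 11.08). These are log2 intensities, and no explanation of them was tested.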

How the results depend on the processing

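Of 8565 genes called between day 10 and day 0 in young mice, 2560 also changed by at least 1 log2 unit (1545 higher, 1015 lower), and the high number series alone, with 3 arrays a group, gave 5398, of which 5320 were among the 8565. Leaving out 1 array gave 7743 to 8426. The age difference, with 0 genes called, gave 31 with array quality weights and 0 to 5 with 1 array left out. The 496 genes highest at day 10 became 212 with the numbering series as a block and 86 at 1 log2 unit in each contrast, and 361 to 600 with 1 array left out. The 212 genes lowest at day 10 became 347 with quantile normalization, 340 with median centring, 366 with array quality weights, 68 with the numbering series as a block, 1 at 1 log2 unit, and 114 to 263 with 1 array left out. A minimum change can only remove genes, and the cause of the other shifts was not tested. Every other alternative stayed within 1.5 times of these counts, and without day 0 replicates 2 and 5 the first count was 8190.

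The replicate numbers do not pair the mice, and with a replicate block 8446 genes were called, 0 in the age difference, 480 highest and 215 lowest at day 10. Of 218 called genes named in the text 200 kept their call under every alternative tried and 18 lost it under at least 1, 7 of them in the high number series alone and 3 when 1 array was left out (Dmp1, Mmp9 and Spic), and none changed sign. Of 2142 list counts under alternatives 2051 stayed within 1.5 times, and most of the 91 that moved were counts of 4 genes or fewer. Larger ones included osteocyte (3 of 6 higher), cholesterol (3 of 7) and secretory stress genes (7 of 12) in the high number series. Immediate early and stress genes (6 of 10) moved in that series, with quantile normalization and without day 10 replicate 2.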

Other observations

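Several imprinted genes were among those with the largest changes, which led to a list of 30 imprinted genes chosen after the values were seen and therefore described with no test of the list. Of 26 measured, 15 were called higher in day 10 calluses of young mice, 3 lower and 8 were not called, with a median change of 1.12, against 43.0% called and a median of −0.02 over all genes. Peg3, a zinc finger gene, read 9.12, 9.91, 9.97, 10.57 and 9.81 at day 10, against 5.59, 6.87, 5.92, 5.26 and 6.70 at day 0 (3.81 ± 0.27). Grb10, an adaptor of insulin and growth factor receptors, read 9.37, 9.93, 10.12, 10.30 and 10.07 at day 10, against 5.95, 6.55, 6.03, 6.04 and 6.33 at day 0 (3.78 ± 0.21). Neither overlapped between the groups. Plagl1, a zinc finger transcription factor, changed by 3.04 ± 0.24, the cell-cycle inhibitor Cdkn1c by 1.74 ± 0.16 and Dlk1 by 1.10 ± 0.21. Of the 26, 8 were highest at day 10 among the young mice, where 2.49% of all genes were. Grb10 stood at 6.18 ± 0.25, 9.09 ± 0.24, 9.96 ± 0.35 and 8.71 ± 0.33 on days 0, 5, 10 and 20, and Peg3 at 6.07 ± 0.70, 7.96 ± 0.44, 9.87 ± 0.52 and 8.41 ± 0.31 (SD, n = 5 each). The imprinted growth factor gene Igf2 stood at 6.35 ± 0.18, 7.80 ± 0.45, 8.99 ± 0.62 and 6.44 ± 0.32. All of these were highest at day 10.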
